A study of Sus scrofa with 12 samples.

Results

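The mRNA libraries of porcine adipose tissue-derived mesenchymal stem/stromal cells (MSCs) and of their extracellular vesicles (EVs) were examined for the genes of the WNT pathway. Members were the table entries whose symbol names a WNT ligand, a frizzled (FZD), SFRP, DKK, AXIN, DVL, TCF7, RSPO or LGR4 to LGR6 gene, LRP5 or LRP6, together with CTNNB1, APC, GSK3B, LEF1, ROR1 and ROR2. Of the 59 entries that matched, the most-read entry of each symbol was kept, which gave 49 genes of the 13363 distinct gene symbols in the table. By role these were 15 ligands, 12 receptors and co-receptors, 6 secreted antagonists, 5 R-spondins or LGR receptors, 8 members of the cytoplasmic core and 3 TCF/LEF factors. Genes of the same families without an entry under their symbol, such as WNT5A, SFRP4, FZD1, FZD8 and RSPO1, were not analysed here.

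MSCs came from the abdominal fat of 3 female domestic pigs aged 3 months, were grown in medium with platelet lysate and were harvested at passage 3. EVs were pelleted from the supernatants of the same cultures by ultracentrifugation, and neither cells nor EVs received a treatment. Each pig contributed 1 MSC and 1 EV library, so that replicate numbers 1 to 3 stand for the same pig in both groups (n = 3 per group). An EV library is bulk RNA from the pelleted vesicles of a whole culture, and no label tells vesicles from other particles that sediment with them.

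WNT ligands are secreted lipid-modified proteins that bind frizzled receptors on nearby cells. In the canonical branch, a frizzled and the co-receptor LRP5 or LRP6 recruit the DVL and AXIN proteins, the complex of APC, AXIN and GSK3B stops marking beta-catenin (CTNNB1) for destruction, and beta-catenin then acts on DNA through TCF and LEF factors. Other branches run through ROR receptors and control cell polarity and movement, while SFRP and DKK proteins block the pathway outside the cell and R-spondins amplify it through LGR receptors. In stromal cells of fat the pathway is best known for holding back adipocyte formation and favouring bone formation.

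The MSC libraries held 11332330 to 12276855 reads on genes and the EV libraries 10429085 to 12151384, so the groups were read at similar depth. Stromal markers were present in both groups: 7 of the 11 with an entry had reads (CD44, NT5E, ENG, PDGFRA, PDGFRB, VIM and LUM), and THY1, COL1A2, COL3A1 and DCN were at 0 in all libraries. Their summed level was 1774 to 3654 RPKM (reads scaled to gene length and library size) in MSCs and 1546 to 2590 RPKM in EVs. The paper reports CD90, the product of THY1, on these MSCs. A marker at 0 is therefore given as listed, here and below, and its absence was not shown. Of the EV markers, CD63 was read at 130 to 223 RPKM in MSCs and at 99.0 to 140 RPKM in EVs, while CD9 and ITGB1 had 4 to 7 and 1 to 3 reads per library. With CD81 the EV markers summed to 184 to 339 RPKM in MSCs and 167 to 213 RPKM in EVs. CD63 and CD81, the 2 that were tested, had log2 fold changes from -0.53 to -0.36, with overlapping groups. Red blood cell and platelet markers were at 0 reads in all libraries for the 4 of 6 genes with an entry. Leukocyte markers summed to 5.58 to 7.21 RPKM in MSCs and 5.03 to 8.73 RPKM in EVs, nearly all of it CD14, with PTPRC at 2 to 10 reads and CD3E at 0. Epithelial markers summed to 0.0137 to 0.10 RPKM in MSCs and 0.0984 to 0.798 RPKM in EVs, with KRT8 at 0. Adipocyte markers spread from 1.21 to 22.7 RPKM in MSCs and from 13.1 to 31.1 RPKM in EVs, nearly all of it LPL, with ADIPOQ at 1 read in 1 library and PLIN1 at 0.

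Of the tested markers of 2 further cell types, PECAM1 and ACTA2 were lower in EVs by the thresholds of the study (more than 2-fold and an unadjusted edgeR p under 0.05), and ERG did not pass them. Endothelial markers summed to 1.43 to 2.50 RPKM in MSCs and 0.542 to 1.64 RPKM in EVs. PECAM1 had 215, 111 and 114 reads in MSC replicates 1 to 3, against 78, 20 and 31 in EVs. ERG, the endothelial marker with the most reads, had 229, 136 and 141 reads in the MSC libraries, against 114, 72 and 227 in the EV libraries, so that the groups overlapped (log2 fold change -0.16, SE 0.51). KDR and TEK had at most 3 reads in a library and VWF was at 0. Smooth muscle and pericyte markers summed to 4.01 to 6.11 RPKM in MSCs and 0.106 to 0.568 RPKM in EVs, with ACTA2 at 359, 286 and 431 reads in the MSC libraries, against 13, 5 and 39 in the EV libraries. The other genes of that list, TAGLN, RGS5, DES, MYH11 and CNN1, had 0 to 7 reads in a library.

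MSC replicate 2 stood apart from the other MSC libraries. Its normalised read count (CPM, scaled to library size with TMM factors) was more than 2-fold from both other MSC libraries in 9 of the 31 WNT genes that were tested (29.0%) and in 19.3% of all entries tested. It was low for RSPO3, LGR4, FZD10, WNT7B, LRP6, AXIN2 and WNT2 and high for DVL1 and WNT11. EV replicate 3 was beyond 2-fold of both other EV libraries in 6 of the 31 (19.4%) and in 7.50% of all entries, low for WNT11 and FZD6 and high for FZD2, WNT9A, TCF7 and TCF7L2. For the genes named here, the fold change is given with and without the library concerned.

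**Figure D1:**
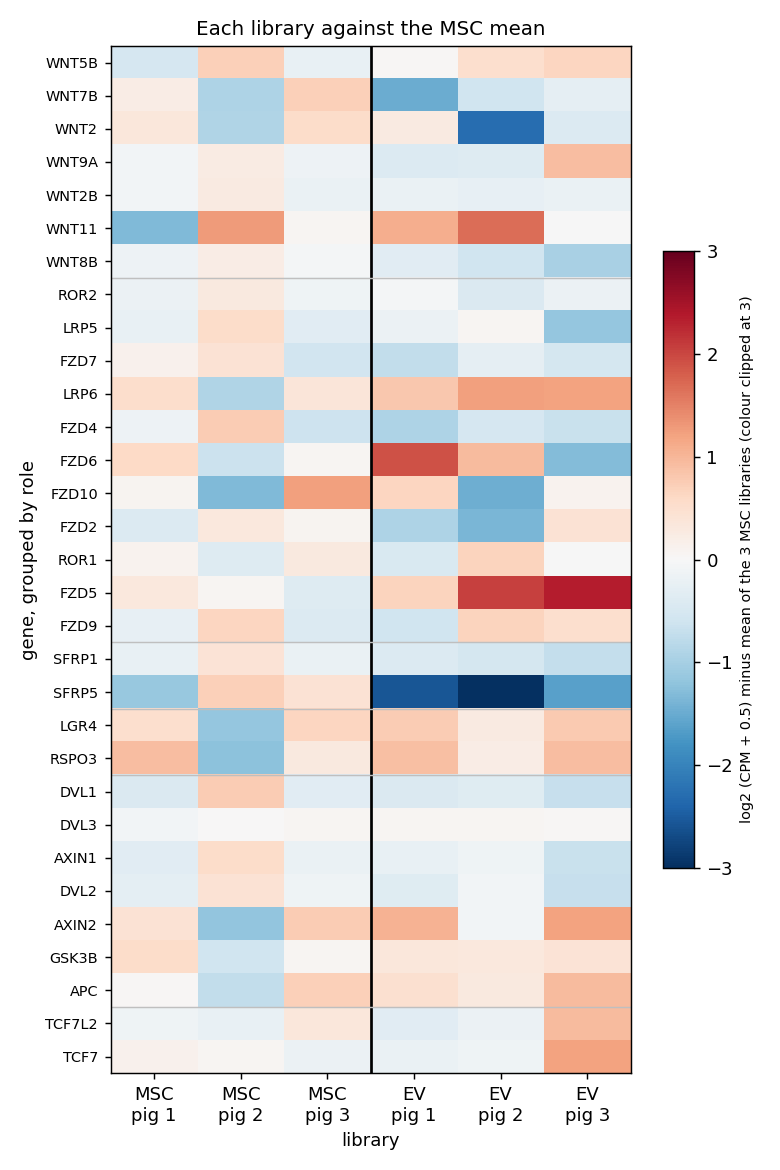
Each of the 31 tested WNT pathway genes (rows, grouped by role) in the 6 libraries (columns), coloured by log2 (CPM + 0.5) minus the mean of the 3 MSC libraries, with colours clipped at 3 on either side. The column of MSC pig 2 departs from its neighbours in 9 genes and that of EV pig 3 in 6, while the row of SFRP5 is blue in all 3 EV columns and that of FZD5 is red in them, palest in EV pig 1.

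Reads were found for 44 of the 49 genes. WNT3A, WNT4, DKK1, DKK4 and LEF1 were at 0 in all 6 libraries, which at 3 allowed reads corresponds to at most 0.303 CPM on this scale, the value of EV replicate 3. Low values have to be read with the layout of the table, which held a second entry over the same stretch of the genome (at least 50% of both spans) for 10 of the genes, namely APC, CTNNB1, DKK1, DKK3, FZD2, GSK3B, LEF1, SFRP2, SFRP5 and WNT10B. These had a median of 35.5 reads over the 6 libraries against 663 for the 39 without such a twin, and among all 6746 entries with a twin 68.2% were at 0, against 28.8% of the 16009 entries that overlapped no other. WNT4 lay within a span that an entry without a symbol also covered on the same strand, with 21 reads, and DKK4 lay within an entry on the other strand with 7454 reads. A read level near 0 is therefore given for these genes as listed, and their absence was not shown. WNT5B, WNT10A and AXIN2 were each counted over a short gene model of 462, 417 and 822 bases, on which their RPKM depends.

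By level per length, a single antagonist outweighed the other 48 genes. The deposited RPKM of the 49 genes summed to 568 ± 84.4 (SD, n = 3) in MSCs and 421 ± 73.3 in EVs, and SFRP1, a secreted frizzled-related protein that binds WNT ligands outside the cell, made up 73.4% ± 1.41 of that sum in MSCs and 68.7% ± 2.37 in EVs. Without SFRP1 the other 48 genes summed to 150 ± 15.2 RPKM in MSCs and 131 ± 14.1 RPKM in EVs. Receptors summed to 47.0 ± 6.22 RPKM in MSCs and 42.6 ± 8.35 RPKM in EVs, the cytoplasmic core to 70.5 ± 11.9 and 60.96 ± 9.96 RPKM, and ligands to 21.0 ± 2.52 and 19.6 ± 1.98 RPKM. TCF/LEF factors (4.27 ± 0.746 and 5.15 ± 2.25 RPKM) and R-spondins with LGR receptors (1.26 ± 0.712 and 1.51 ± 0.315 RPKM) were the least abundant roles. For every role but the secreted antagonists, the ranges of the 3 MSC and the 3 EV libraries overlapped.

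**Figure D2:**
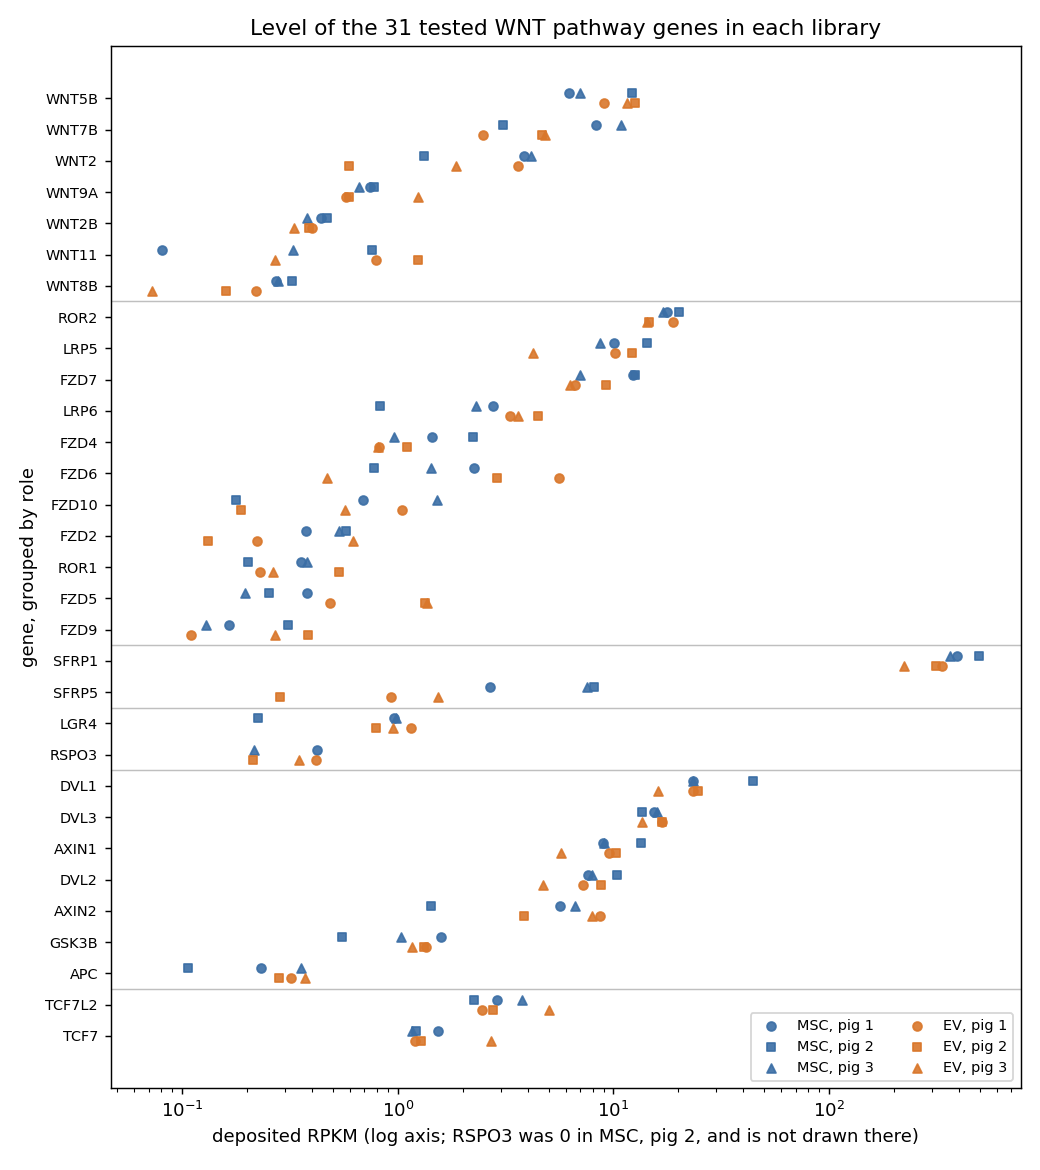
Deposited RPKM (log axis) of the 31 tested WNT pathway genes in every library, grouped by role and ordered by the MSC mean; blue marks MSCs, orange EVs, and circle, square and triangle pigs 1, 2 and 3. SFRP1 lies between 223 and 497 RPKM in all 6 libraries, while the other 30 genes do not exceed 44.6 RPKM, and SFRP5 has the widest gap between its MSC and EV means on this axis.

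EVs were then compared with MSCs over the whole table, to ask which WNT transcripts were enriched or depleted in EVs relative to their parent cells. Of the 49 genes, 31 passed edgeR's filter on low counts, the lowest of them with 57 reads over the 6 libraries, and the other 18 (13 with reads, at most 49) were not tested. In the quasi-likelihood test of edgeR, 0 of the 31 genes were higher and 0 lower in EVs at more than 2-fold and an adjusted p under 0.05 (adjusted p = 0.219 to 0.928), as were 0% of all 12392 entries in either direction. An unadjusted p-value under 0.05 was seen for 3 of the 31 genes and 1978 of all entries. By the thresholds of the study, FZD5 was higher and SFRP5 lower in EVs, which is 1 of 31 genes in each direction, against 5.55% of all entries higher and 3.57% lower. DESeq2 called the same pair after adjustment, 1 gene higher and 1 lower, against 1.86% and 1.42% of the entries it tested. When the pig entered edgeR as a block, 0 of the 31 genes passed the adjusted threshold (lowest adjusted p = 0.0661), while 0.492% of all entries were higher and 0.605% lower. In that fit 2 of the 31 genes were higher by the thresholds of the study, FZD5 and LRP6, and 1 was lower, SFRP5, against 8.01% and 5.17% of all entries. A single gene of 31 is near these background shares, so the counts alone are no result about the pathway.

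Over the tested genes, differences in either direction were about equally frequent. The log2 fold change was above 0 for 16 of the 31 genes and below 0 for 15, while 49.1% of all entries were above 0. Its median was 0.04, against -0.02 over all entries, and became -0.23 without EV replicate 3. In 2 genes (FZD5 and LRP6) all 3 EV libraries lay above all 3 MSC libraries by CPM and in 4 genes (SFRP1, SFRP5, WNT2B and WNT8B) below them, against 14.3% and 13.6% of all entries. By deposited RPKM only 3 genes lay below, since the WNT2B groups then overlapped. EVs exceeded the MSCs of the same pig in all 3 pigs for 5 genes (LGR4, AXIN2, APC, LRP6 and FZD5) and lay under them for 7 (DVL2, WNT2, WNT2B, WNT8B, FZD4, SFRP1 and SFRP5), against 22.6% and 24.2% of all entries. With 3 libraries a group, an exact permutation test on a single gene cannot go below p = 0.1.

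**Figure D3:**
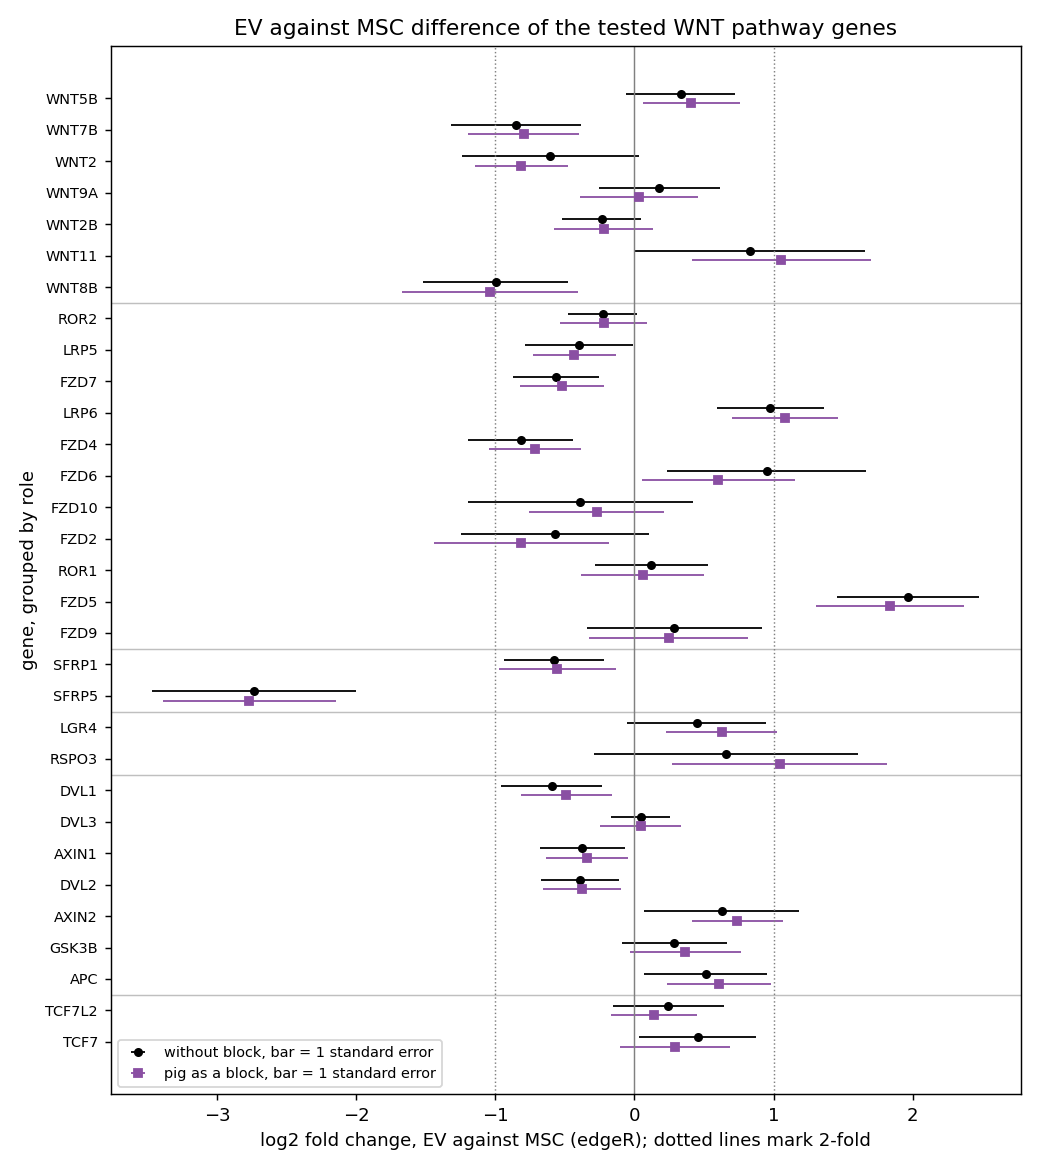
Log2 fold change of EVs against MSCs (x axis) with 1 standard error for the 31 tested genes, from edgeR without a block (black circles) and blocked by pig (purple squares); dotted lines mark a 2-fold change. FZD5 at 1.97 and SFRP5 at -2.74 lie past the dotted lines by more than 1 standard error in both fits, and LRP6 moves from 0.98 to 1.08 with the block.

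The fold changes of the whole table depended on the length of the genomic span. With all entries split by span into 4 bins of 3098, the median log2 fold change ran from -0.25 in the shortest bin (53 to 6265 bases) through -0.16 and 0.08 to 0.27 in the longest (from 45415 bases). The WNT genes, with 9, 4, 8 and 10 in the respective bins, had medians of -0.39, -0.49, -0.03 and 0.26. FZD5, with a span of 3175 bases, and SFRP1, with a span of 88385 bases, lay on the side opposite to the trend at their span (-0.30 and 0.30), whereas SFRP5 (5886 bases, trend -0.26) and LRP6 (96996 bases, trend 0.30) lay on the same side. With the trend subtracted, LRP6 was at 0.67, SFRP1 at -0.88, SFRP5 at -2.48 and FZD5 at 2.26, and the median of the 31 genes was -0.16.

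**Figure D4:**
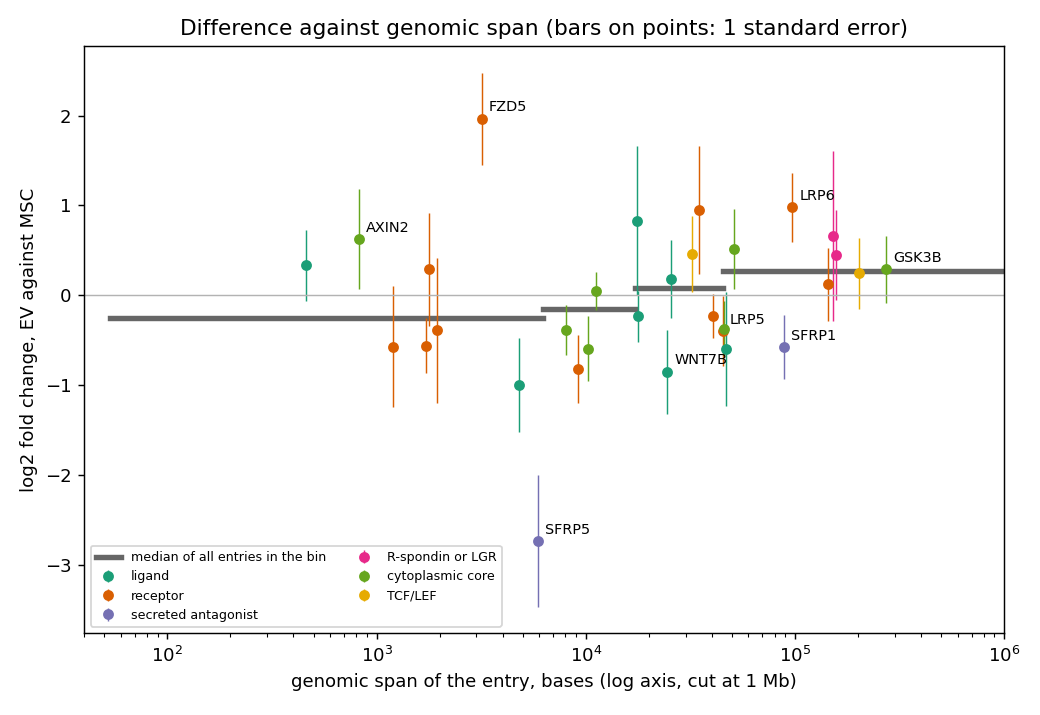
Log2 fold change of EVs against MSCs (y axis, bars 1 standard error) against the genomic span of the entry in bases (log axis) for the 31 tested genes, coloured by role; grey bars are the medians of all entries in each of 4 equal bins of spans. The grey bars climb from -0.25 to 0.27, with FZD5 far above and SFRP5 far below them.

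Among the secreted antagonists, SFRP5 was depleted in EVs by the unadjusted test and SFRP1 was abundant in both groups. SFRP5, an adipose-secreted frizzled-related protein (susScr3, chr14:118623934-118629819, minus strand), had 208, 620 and 574 reads in MSC replicates 1 to 3, against 67, 22 and 112 reads in the EVs of the same pigs. Every EV library was below every MSC library, the nearest pair being MSC replicate 1 with 16.1 CPM and EV replicate 3 with 11.3 CPM. In RPKM the level was 6.12 ± 2.99 in MSCs and 0.917 ± 0.625 in EVs (SD, n = 3). The log2 fold change was -2.74 (SE 0.73), a 6.66-fold lower value, with an unadjusted p of 0.00625 and an adjusted p of 0.222 in edgeR. Pig by pig, the difference in log2(CPM + 0.5) was -1.43, -4.75 and -2.06. Blocked by pig, the log2 fold change was -2.77 (adjusted p = 0.0661 from edgeR), and DESeq2 gave an adjusted p of 0.0058. Without EV replicate 3 the log2 fold change was -3.49, and without EV replicate 2, the lowest library, -2.28. The twin entry of SFRP5 was at 0 reads, so reads that fall on both could not be recovered from it. PECAM1 and ACTA2 were lower in EVs as well (log2 fold changes -1.71 and -4.10) while ERG was at -0.16 with overlapping groups, VWF, RGS5 and DES of the same lists were at 0, and the part of these markers in the result was not tested. In the bulk MSC libraries, the number of cells of a type and the RNA per cell cannot be told apart. The EV libraries hold RNA of pelleted vesicles, and which cells released them cannot be told.

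SFRP1 (chr17:11790234-11878618, minus strand) had 74762, 93529 and 68826 reads in the MSC libraries, against 59358, 60065 and 40207 in the EV libraries. It took 0.607% to 0.762% of all reads on genes in MSCs and 0.346% to 0.569% in EVs, and ranked 33 to 45 and 35 to 61 among all entries by RPKM. The groups did not overlap, with the highest EV library under the lowest MSC library. Its level was 417.7 ± 69.6 RPKM in MSCs and 290 ± 59.4 RPKM in EVs, and the log2 fold change of -0.58 (SE 0.36) had an adjusted p of 0.420 in edgeR and an exact permutation p of 0.1. SFRP1 lay above SFRP5 by level in every library, and SFRP5 above DKK3.

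The remaining SFRP and DKK antagonists were near or at 0. WIF1, a secreted inhibitor that the rule for members did not include, is described below. DKK3, a divergent Dickkopf protein, had 6 to 12 reads in each MSC library and 6 to 10 in each EV library, SFRP2 had 1 read in 1 MSC library, and DKK1 and DKK4, inhibitors of LRP5 and LRP6, had none. DKK1, DKK3 and SFRP2 each have a twin entry at 0 reads.

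**Figure D5:**
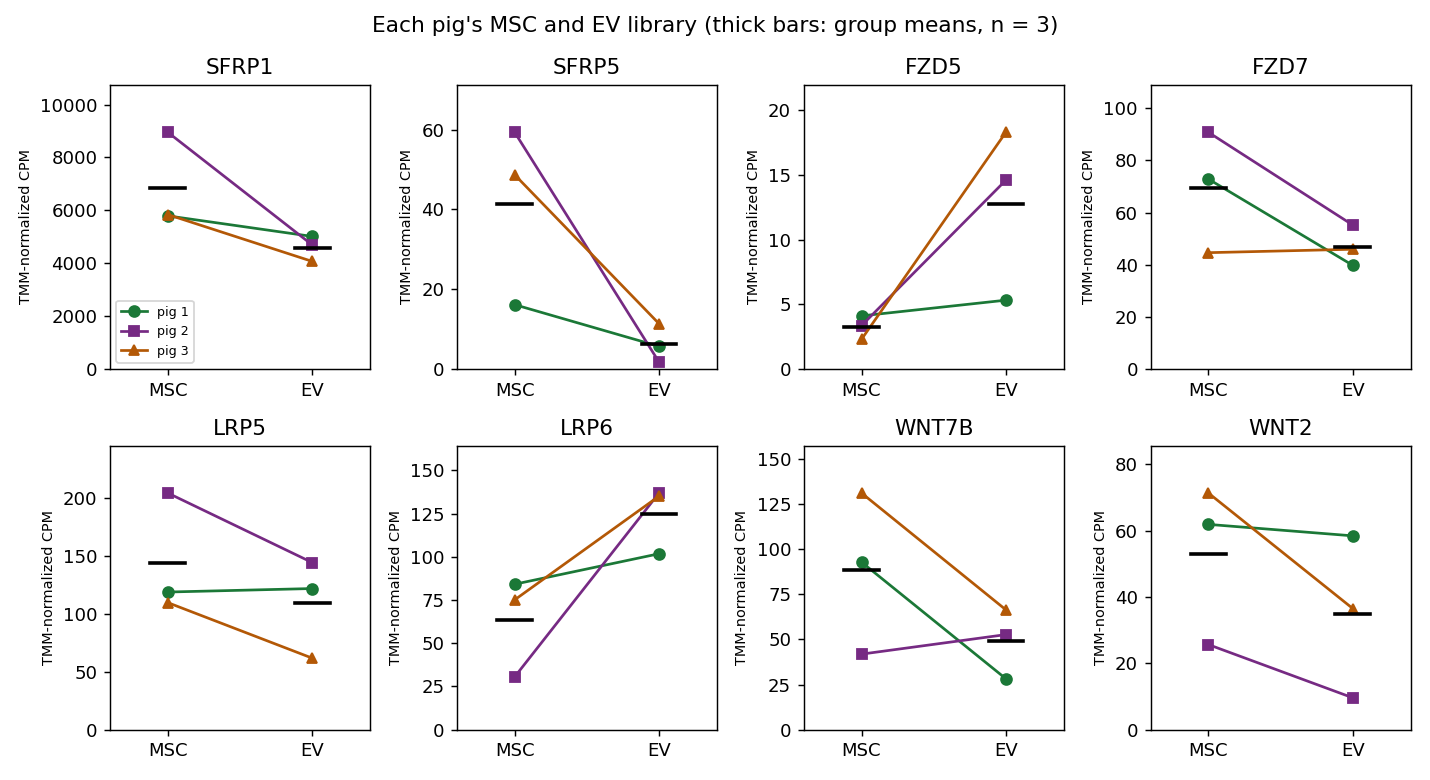
TMM-normalised CPM (y axes from 0) of 8 WNT pathway genes in the MSC and the EV library of each pig, joined by a line per pig, with thick bars at the group means (n = 3). The 3 lines go down for SFRP1, SFRP5 and WNT2 and up for FZD5 and LRP6, and differ in direction between pigs for WNT7B, FZD7 and LRP5.

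Of the 15 ligands, WNT5B, WNT7B and WNT2 led by RPKM, and none of the 7 tested passed a threshold in edgeR with all 6 libraries. WNT5B, which signals largely outside the beta-catenin branch (chr5:71087394-71087855), had 127, 246 and 141 reads in the MSC libraries, against 171, 258 and 222 in the EV libraries. The EV libraries lay within or near the MSC range, at 8.49 ± 3.27 RPKM in MSCs and 11.1 ± 1.85 RPKM in EVs (log2 fold change 0.33, SE 0.39). WNT7B, a canonical ligand (chr5:654961-679412), had 1198, 437 and 1545 reads in the MSC libraries, against 334, 674 and 656 in the EV libraries. MSC replicate 2 lay among the EV libraries, and the levels were 7.41 ± 3.97 and 3.99 ± 1.301 RPKM. The log2 fold change of WNT7B was -0.85 (SE 0.47, adjusted p = 0.380 from edgeR), and without MSC replicate 2 it was -1.19 with an unadjusted edgeR p of 0.0195, which passes the thresholds of the study. It was -0.46 without MSC replicate 3 and -0.57 without EV replicate 1. WNT2, a canonical ligand of mesenchymal tissue (chr18:30791212-30837817), had 799, 268 and 841 reads in the MSC libraries, against 692, 123 and 361 in the EV libraries. Pig 2 was the lowest of its group in both, and EVs were lower than MSCs within each pig, although the groups overlapped (3.11 ± 1.56 and 2.02 ± 1.51 RPKM, log2 fold change -0.60, SE 0.63). That value was -1.20 without EV replicate 1, -0.14 without EV replicate 2 and -0.93 without MSC replicate 2. The WNT2 span also holds reads assigned to the entry ST7 on the same strand, 379 over the 6 libraries.

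In MSCs the order of ligands by RPKM was WNT5B, WNT7B, WNT2, WNT9A, WNT2B, WNT11 and WNT8B, in which the first 3 overlapped their neighbours and WNT9A stood apart from both sides (0.725 ± 0.0597 RPKM). In EVs WNT5B stood apart from WNT7B, and from WNT7B down each ligand overlapped the next. WNT8B, at 12 to 14 reads in MSCs and 3 to 9 in EVs, and WNT2B, at 105 to 131 and 88 to 110 reads, were lower in all EV libraries than in any MSC library by CPM, with log2 fold changes of -0.997 (SE 0.52) and -0.24 (SE 0.28). WNT11, linked to cell movement, was uneven in both groups, with 6, 56 and 24 reads in the MSC libraries, against 55, 93 and 19 in the EV libraries. Its log2 fold change of 0.83 (SE 0.83) was 1.89 without MSC replicate 2 and 1.19 without EV replicate 3. It was 0.32 without EV replicate 2 and also without MSC replicate 1. The log2 fold change of WNT9A was 0.18 (SE 0.44) and came from EV replicate 3, without which it was -0.43. The other ligands, WNT1, WNT3, WNT8A, WNT10A, WNT10B and WNT16, had 0 to 12 reads in a library and were not tested. WNT10A had 0, 0 and 1 reads in the MSC libraries, against 1, 2 and 12 in the EV libraries and passed the thresholds of the study in DESeq2 and in edgeR without the filter, on reads that came mostly from EV replicate 3.

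Among the receptors, FZD5 was enriched in EVs by the unadjusted test. FZD5, a receptor of both branches (chr15:122425805-122428979, plus strand), had 53, 35 and 27 reads in the MSC libraries, against 63, 187 and 181 in the EV libraries. EV replicates 2 and 3 lay well above all MSC libraries and EV replicate 1 only slightly above MSC replicate 1. The levels were 0.276 ± 0.0929 RPKM in MSCs and 1.06 ± 0.501 RPKM in EVs, and the log2 fold change was 1.97 (SE 0.51), a 3.91-fold higher value with an unadjusted p of 0.00541 and an adjusted p of 0.219 in edgeR. The differences in log2(CPM + 0.5) within pigs were 0.34, 1.97 and 2.75. Blocking by pig, the log2 fold change was 1.84 (adjusted p = 0.115 from edgeR), and DESeq2 gave an adjusted p of 0.0186. Leaving out single libraries gave 1.61 to 2.34. On log2(RPKM + 1), which compresses a gene of this level, the difference was 0.66 and did not reach 2-fold. FZD5, FZD7 and WNT10A lie within the long span of an entry named OCA2, which had 1 read.

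LRP6, a co-receptor of the canonical branch (chr5:63577474-63674469), had 1086, 319 and 885 reads in the MSC libraries, against 1205, 1752 and 1335 in the EV libraries. All EV libraries were above all MSC libraries, and MSC replicate 2 was the lowest of the 6. Its level was 1.96 ± 1.01 RPKM in MSCs and 3.80 ± 0.602 RPKM in EVs. The log2 fold change was 0.98 (SE 0.38), just under 2-fold, with an unadjusted p of 0.0356 and an adjusted p of 0.287 in edgeR and an exact permutation p of 0.1. It passed the thresholds of the study with the pig as a block (1.08, adjusted p = 0.174 from edgeR), without EV replicate 1 (1.10) and without MSC replicate 1 (1.23), and was 0.65 without MSC replicate 2.

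LRP5, the other co-receptor (chr2:3168524-3213765), showed the opposite sign without passing a threshold. It had 1533, 2133 and 1292 reads in the MSC libraries, against 1442, 1846 and 610 in the EV libraries, and the groups overlapped at 11.0 ± 2.91 and 8.86 ± 4.11 RPKM (log2 fold change -0.40, SE 0.39). LRP5 exceeded LRP6 by RPKM in all 6 libraries. The ratio of LRP6 to LRP5 in RPKM was 0.0581 to 0.275 in MSCs and 0.324 to 0.8497 in EVs, lowest in MSC replicate 2 and highest in EV replicate 3.

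ROR2, a receptor tyrosine kinase for non-canonical WNT ligands (chr14:3602843-3643321), was the most abundant of the 12 receptors by RPKM in both groups. Its reads were 2910, 3241 and 2742 in the MSC libraries, against 2885, 2409 and 2215 in the EV libraries, and its levels of 18.2 ± 1.61 and 15.96 ± 2.57 RPKM overlapped (log2 fold change -0.23, SE 0.25). FZD7, a frizzled common in stem cells (chr15:117063378-117065102), had 941, 949 and 526 reads in the MSC libraries, against 471, 707 and 454 in the EV libraries. MSC replicate 3 lay within the EV range, and the levels were 10.7 ± 3.17 and 7.42 ± 1.62 RPKM (log2 fold change -0.56, SE 0.31, adjusted p = 0.377 from edgeR). In both groups ROR2 stood apart from LRP5, LRP5 overlapped FZD7, FZD7 stood apart from LRP6, and LRP6 and each receptor after it down to FZD9 overlapped the next.

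Of the other receptors, FZD4 had the most negative log2 fold change, -0.82 (SE 0.38, adjusted p = 0.330 from edgeR), with 449, 686 and 294 reads in the MSC libraries, against 237, 344 and 239 in the EV libraries. It was lower in EVs within each pig, by only 0.04 on the log2 scale in pig 3. FZD4 passed the thresholds of the study without MSC replicate 3 (-1.09) and was at -0.33 without MSC replicate 2. FZD6 had 400, 135 and 249 reads in the MSC libraries, against 920, 513 and 79 in the EV libraries, a spread in which EV replicate 3 was the lowest and EV replicate 1 the highest of the 6 libraries (log2 fold change 0.95, SE 0.71). Without EV replicate 3 it was 1.44 and passed the thresholds of the study, whereas without EV replicate 1 it was 0.15. FZD2, FZD9, FZD10 and ROR1 had log2 fold changes of -0.57, 0.29, -0.39 and 0.12 with SE from 0.40 to 0.81. These values depended on single libraries. Without EV replicate 3, FZD2 was at -1.61 and passed the thresholds of the study, whereas without EV replicate 2 it was at -0.15. FZD10 was at 0.50 without MSC replicate 3, at 0.08 without EV replicate 2 and at -0.84 without MSC replicate 2. Without EV replicate 2, FZD9 was at -0.036 and ROR1 at -0.25, and without MSC replicate 2 ROR1 was at -0.056. FZD3, with 1 to 11 reads in a library, was not tested. The 8 frizzleds summed to 15.5 ± 3.15 RPKM in MSCs and 13.6 ± 2.68 RPKM in EVs.

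R-spondins and their LGR receptors were read at low levels, and MSC replicate 2 was the lowest library of both genes tested. LGR4, the R-spondin receptor of many tissues (chr2:35455067-35612369), had 144, 33 and 144 reads in the MSC libraries, against 159, 119 and 134 in the EV libraries. EVs were higher within each pig, by 0.26, 1.42 and 0.14 on the log2 scale, and the log2 fold change of 0.45 (SE 0.50) became 0.05 without MSC replicate 2. RSPO3, the ligand of this pair (chr1:39635369-39787134), had 22, 0 and 11 reads in the MSC libraries, against 20, 11 and 17 in the EV libraries. Its log2 fold change of 0.66 (SE 0.95) was 0.10 without MSC replicate 2, the library at 0. RSPO4 had 2 to 12 reads in a library and lay within the entry PSMF1 on the other strand (5708 reads), LGR5, a receptor known as a stem cell marker, had 6, 8 and 1 reads in the MSC libraries, against 1, 1 and 2 in the EV libraries, and RSPO2 had 0 to 2. None of these was tested.

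In the cytoplasmic core none of the 7 tested genes passed a threshold. DVL1, a scaffold that relays the signal from frizzled (chr6:58116729-58126973), had 2179, 4075 and 2145 reads in the MSC libraries, against 2010, 2292 and 1402 in the EV libraries. MSC replicate 2 was the highest of the 6, and the log2 fold change of -0.59 (SE 0.36) was -0.10 without it. DVL3 (chr13:131521546-131532774) had 3075, 2687 and 3137 reads in the MSC libraries, against 3125, 3368 and 2552 in the EV libraries. It was the steadiest member, at 254 ± 14.3 CPM in MSCs and 262 ± 3.07 CPM in EVs (log2 fold change 0.04, SE 0.21, and -0.0037 without MSC replicate 1). DVL2 was lower in EVs within each pig (log2 fold change -0.39, SE 0.28).

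AXIN1, the limiting scaffold of the destruction complex (chr3:41033945-41079796), had 1257, 1865 and 1249 reads in the MSC libraries, against 1251, 1440 and 755 in the EV libraries. The groups overlapped, with a log2 fold change of -0.37 (SE 0.31) that was -0.05 without MSC replicate 2. AXIN2, a scaffold that is also a target of beta-catenin, had 205, 51 and 237 reads in the MSC libraries, against 292, 140 and 273 in the EV libraries. Pig 2 was the lowest in both groups, EVs were higher within each pig, and the log2 fold change of 0.63 (SE 0.56) was 0.74 with the pig as a block (adjusted p = 0.247 from edgeR) and 0.23 without MSC replicate 2. APC, the large scaffold of the complex (chr2:121534780-121585881), had 89, 40 and 133 reads in the MSC libraries, against 113, 107 and 134 in the EV libraries, and its twin entry had 4. It too was higher in EVs within each pig (log2 fold change 0.51, SE 0.44). GSK3B, the kinase that marks beta-catenin (chr13:149430809-149702182), had 126, 43 and 81 reads in the MSC libraries, against 99, 105 and 87 in the EV libraries (log2 fold change 0.29, SE 0.38, and 0.02 without MSC replicate 2). For CTNNB1 (chr13:27623128-27667302), 1, 5 and 1 reads were counted in the MSC libraries, against 8, 5 and 2 in EVs, its twin entry was at 0, and it was not tested.

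In MSCs the order of the core by RPKM was DVL1 (30.5 ± 12.2), DVL3 (15.0 ± 1.19), AXIN1 (10.46 ± 2.59), DVL2 (8.65 ± 1.52), AXIN2 (4.57 ± 2.76), GSK3B (1.06 ± 0.519), APC (0.232 ± 0.124) and CTNNB1 (0.0162 ± 0.0161), with overlaps between AXIN1 and DVL2 and between AXIN2 and GSK3B. The order was the same in EVs, where DVL1 overlapped DVL3 and the ranges of AXIN1, DVL2 and AXIN2 overlapped in turn.

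Both TCF factors with reads were highest in EV replicate 3. TCF7L2, the beta-catenin partner most studied in metabolism (chr14:134586336-134788242), had 294, 224 and 375 reads in the MSC libraries, against 231, 280 and 481 in the EV libraries. TCF7 (chr2:142041628-142073804) had 261, 202 and 193 reads in the MSC libraries, against 190, 218 and 432 in the EV libraries. Apart from EV replicate 3, the EV libraries lay within or near the MSC range for both. The log2 fold changes of 0.24 (SE 0.40) for TCF7L2 and 0.46 (SE 0.42) for TCF7 became -0.29 and -0.17 without EV replicate 3. By RPKM TCF7L2 stood above TCF7 in MSCs (2.97 ± 0.761 and 1.303 ± 0.206), and the ranges overlapped in EVs.

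Further genes of the pathway were taken from a list of 76 regulators and branch components. Of these, 63 had an entry and 50 were tested. After adjustment edgeR called 0 higher and 0 lower, DESeq2 called 2 higher and 0 lower, against 1.86% and 1.42% of all entries, and 10 of the 50 had an unadjusted edgeR p under 0.05, against 16% of all entries. By the thresholds of the study 5 of the 50 were higher in EVs, against 5.55% of all entries, and 1 was lower, against 3.57%. The higher ones were PRICKLE2, a planar polarity protein, TNKS, which turns over AXIN, USP34, a deubiquitinase of AXIN, and PPP3CA and NFATC1, the phosphatase and transcription factor of the calcium branch. PRICKLE2 had 179, 116 and 251 reads in the MSC libraries, against 353, 584 and 1106 in the EV libraries, with no overlap, and a log2 fold change of 2.02 (SE 0.52). Its adjusted p in edgeR was 0.219, and 0.0407 with the pig as a block, where it was the gene of the list that passed. The log2 fold changes of USP34, PPP3CA, TNKS and NFATC1 were 1.47, 1.29, 1.25 and 1.14, and without EV replicate 3 only PRICKLE2 and PPP3CA of the list were higher, with USP34 at 1.27, TNKS at 0.90 and NFATC1 at 0.69 past the thresholds no longer. TNKS also lost its call without MSC replicate 2 (0.98), and NFATC1 without MSC replicate 1 (0.93) or MSC replicate 3 (1.14) and with the entries of a symbol summed (0.54). DAAM2, a formin of the polarity branch, was the lower gene, with 3712, 3180 and 3899 reads in the MSC libraries, against 1311, 1111 and 2074 in the EV libraries and a log2 fold change of -1.18 (SE 0.35, adjusted p = 0.243 from edgeR), which was -0.93 without EV replicate 2 and then under 2-fold. At the spans of these 6 genes, the trend of all entries was 0.21 to 0.28.

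Over the 50 tested genes of that list, 33 were above 0 and 17 below, against 49.1% of all entries above 0, with a median log2 fold change of 0.22 against -0.02. In 13 of the 50 all EV libraries were above all MSC libraries and in 4 below, against 14.3% and 13.6% of all entries. The ligand carrier WLS, at 4844, 6913 and 4493 reads in the MSC libraries, against 6430, 5624 and 5767 in the EV libraries, had a log2 fold change of 0.14 (SE 0.31), and the co-receptors PTK7 and RYK had 0.18 (SE 0.35) and 0.08 (SE 0.26). All of these changed sign when a library was left out, WLS to -0.0033 without MSC replicate 1, PTK7 to -0.16 without EV replicate 3, and RYK to -0.061 without EV replicate 2 and -0.03 without MSC replicate 1. By RPKM, PTK7 (102 to 163) and RYK (21.7 to 33.3) lay above ROR2 in every library. WIF1, a secreted inhibitor of WNT ligands, had 1277, 597 and 1390 reads in the MSC libraries, against 242, 99 and 1079 in the EV libraries. It was lower in EVs within each pig, but EV replicate 3 stayed near the MSC libraries (log2 fold change -0.999, SE 0.85). WIF1 passed the thresholds of the study when blocked by pig (-1.77, adjusted p = 0.110 from edgeR) and without EV replicate 3 (-2.70).

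Genes used as readouts of beta-catenin and TCF numbered 23, 5 of them described above, and 15 had an entry and 10 were tested. After adjustment edgeR and DESeq2 each called 0 higher and 0 lower, and 1 of the 10 had an unadjusted edgeR p under 0.05, against 16% of all entries. By the thresholds of the study 0 were higher, against 5.55% of all entries, and 1 was lower, against 3.57%. The lower gene was FOSL1, an AP-1 subunit, with 1564, 1773 and 1172 reads in the MSC libraries, against 739, 495 and 891 in the EV libraries and a log2 fold change of -1.03 (SE 0.36, adjusted p = 0.266 from edgeR). FOSL1 lost the call without EV replicate 1 (-1.02), EV replicate 2 (-0.77) or MSC replicate 2 (-0.79). Of the 10, 7 were above 0 and 3 below, with a median log2 fold change of 0.43, against 49.1% above 0 and a median of -0.02 over all entries. MYC, which has a twin entry, had 1 to 13 reads in a library and was not tested.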

How the data were processed

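mRNA libraries of 3 MSC and 3 EV samples were used, grouped by their labels, and the small-RNA libraries were not used. Per the labels, libraries came from a stranded total RNA kit, whereas the methods of the study name a TruSeq RNA kit. The authors aligned reads with TopHat and deposited the raw read count of each table entry with its length and position on susScr3. The counting program is given as HTSeq in the submitters' processing notes and as featureCounts in the methods, and its strand setting is not given in the sources used here. The RPKM values deposited by the authors rest on larger library totals, and reads on genes made up 25.4% to 28.2% of them. Of 29661 entries, 3 that were shifted by a column were left out. Symbols came from the table for 4336 entries and from an annotation table for 11804 of 25322 Ensembl identifiers.

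The members and all gene lists were chosen with earlier results of these data known. Counts were compared with edgeR 4.0.16 in R 4.3.3 (TMM, filterByExpr, quasi-likelihood test, Benjamini-Hochberg adjustment over 12392 entries), and levels between genes by RPKM. Nothing in the labels speaks of repeat cultures, and each library is from its own pig within a group. Genes given in full are those past the thresholds of the study, the 3 most abundant tested genes of each role, and CTNNB1, APC, GSK3B, LRP5 and LRP6. Other genes given with a value in every library were chosen after their values were seen. Of the other lists, up to 6 genes a direction past those thresholds are named. A limit of 3 reads for a count of 0 covers counting error only, as reads carry no molecular identifiers. The pig labels pair the libraries: deviations from the group means correlated at 0.238 to 0.401 within pigs and at -0.367 to -0.0331 between pigs. Alternatives were DESeq2 1.42.0, limma 3.58.1 on log2(RPKM + 1) and log2(RPKM + 0.1), other scaling factors and filters, summed entries, leaving out single libraries, and a block for the pig. Removing entries that share a span and subtracting the span trend were added after seeing the data. On simulated data with 200 of the 12392 entries changed 4-fold, edgeR recovered 39.5% with 8 false calls, and 92% with 9 false calls at 16-fold. The simulated libraries had no pig effect and none that stood apart, so these rates need not hold for the real libraries.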

Additional observations from a re-analysis of the deposited data

How the results depend on the processing

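The filter on low counts left 18 genes untested, 10 genes had a twin entry, and each group held 3 libraries. Over all entries, adjusted calls (0 and 0 in edgeR) were 230 higher and 175 lower with DESeq2, 1 and 4 with limma on log2(RPKM + 0.1), 7 lower on log2(RPKM + 1) and 5 lower without the filter. Unadjusted calls were 216 higher and 187 lower on log2(RPKM + 1), and 270 (without EV replicate 2) to 607 lower when single libraries were left out. With the pig as a replicate block, all entries gave 61 higher and 75 lower adjusted calls, the WNT genes 2 higher by the thresholds of the study (FZD5 and LRP6), and the other pathway genes 1 higher adjusted, 6 higher unadjusted (with TNKS2) and 2 lower unadjusted (with WIF1); the block changed no other call of the WNT genes.

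Among the 31 WNT genes, DESeq2 called 1 higher and 1 lower after adjustment. With DESeq2 and without the filter, FZD5 was higher by the thresholds of the study, as was WNT10A, which is not among the 31. Of the 31, 2 were higher by the thresholds of the study on log2(RPKM + 0.1) and 0 on log2(RPKM + 1), against 695 and 216 of all entries. When single libraries were left out, 1 to 2 were higher and 1 to 2 lower, against 511 to 948 and 270 to 607 of all entries. Without entries that share a span 0 were lower, since that removes SFRP5. Leaving out single libraries gave 2 to 4 genes with EVs above MSCs without overlap, and 6 to 9 higher and 9 to 12 lower in all remaining pigs. With fewer libraries or pigs such agreement is reached more easily. The share of all entries at these settings is not given here, so these counts are no result about the genes.

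Of the other pathway genes, DESeq2 called 2 higher after adjustment. By the thresholds of the study, 2 were higher on log2(RPKM + 1), against 216 of all entries. With DESeq2 and without the filter 2 were lower, against 585 and 583 of all entries. Leaving out single libraries gave 2 to 6 higher and 0 to 3 lower. Of the beta-catenin targets, 0 were lower on log2(RPKM + 1), against 187 of all entries, and leaving out single libraries gave 0 to 1 in either direction. Over all entries, leaving out single libraries gave 511 to 948 higher and 270 to 607 lower. Reversals were tallied for 48 genes, the 31 tested WNT genes and 17 others given with a fold change. Over left-out libraries the direction reversed for TCF7 (-0.17 to 0.70), TCF7L2 (-0.29 to 0.47), DVL3 (-0.0037 to 0.073), FZD10 (-0.94 to 0.50), FZD9 (-0.036 to 0.849), ROR1 (-0.25 to 0.37), WNT9A (-0.43 to 0.41), WLS (-0.0033 to 0.47), PTK7 (-0.16 to 0.38), RYK (-0.061 to 0.26) and ERG (-0.90 to 0.21). With the span trend subtracted it reversed for TCF7L2 (-0.042), ROR1 (-0.16), WLS (-0.11) and RYK (-0.18). Of 809 values of these genes under alternatives, 758 kept their direction and their side of the thresholds of the study, 15 crossed them upward, 17 downward and 19 reversed. The cause of these changes was not tested.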

Other observations

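Some further pathway genes, chosen after their values were seen, did not overlap between the groups. They are part of the 13 of 50 tested genes of that list above and the 4 below without overlap. Over all entries these shares were 14.3% and 13.6%, so the lack of overlap is no result about these genes. Of those given here, only TNKS2 had an unadjusted edgeR p under 0.05. CSNK1G2, CSNK1G3 and PPP2CA of the list also did and are not described. CSNK1A1, the casein kinase that primes beta-catenin for GSK3, had 2482, 1430 and 2054 reads in the MSC libraries and 2416, 3108 and 3131 in those of EVs (log2 fold change 0.60, SE 0.27, adjusted p = 0.319 from edgeR). TNKS2, like TNKS a poly-ADP-ribosyltransferase that acts on AXIN, had 1287, 433 and 1087 reads in MSC replicates 1 to 3 and 1422, 2163 and 1645 in the EVs (log2 fold change 0.96, SE 0.36, adjusted p = 0.276 from edgeR). Blocked by pig, TNKS2 was at 1.04 (adjusted p = 0.178 from edgeR) and passed the thresholds of the study, as it did without EV replicate 1, MSC replicate 1 or MSC replicate 3 (1.10 to 1.18), while it was 0.66 without MSC replicate 2. GSK3A, the close relative of GSK3B, lay on the other side, with 1086, 1304 and 1179 reads in MSC libraries and 868, 1017 and 639 in EV libraries (log2 fold change -0.51, SE 0.23, adjusted p = 0.330 from edgeR). MSC replicate 2 was the lowest MSC library of CSNK1A1 and TNKS2 and the highest of GSK3A.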
